A study of Homo sapiens with 26 samples.

Results

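The nuclear genes for the structural subunits of mitochondrial complex I were chosen by symbol, as NDUFA, NDUFB, NDUFC, NDUFS or NDUFV followed by a number, which took 37 of the 60663 genes in the RNA-seq files, of which 36 are described. Assembly factors (NDUFAF genes) and NDUFAB1, the acyl carrier protein, were not members. Of the 36, 35 encode complex I subunits. NDUFA4 was named as one but is now known as a subunit of cytochrome c oxidase, and its values are given apart. The subunits were sorted by their place in the complex into 6 core subunits of the matrix arm, 9 accessory subunits of the matrix arm and 20 accessory subunits of the membrane arm.

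Complex I is the first enzyme of the respiratory chain: it takes electrons from NADH, passes them along iron-sulfur clusters to ubiquinone, and pumps protons across the inner mitochondrial membrane. The core of the matrix arm carries the electron path and is encoded in the nucleus, whereas the core of the membrane arm is encoded in mitochondrial DNA. Accessory subunits surround both arms, are made by cytosolic ribosomes and must be imported into the organelle.

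All samples were HEK293T, a human embryonic kidney line, assayed by LOCL-TL, in which blue light switches on a biotin ligase (LOV-BirA) placed at one site in the cell, so that nearby ribosomes carrying Avi-tagged RPL29 are biotinylated and can be pulled down. For ribosome profiling the ligase sat on the ER (fused to Sec61β, SFFV promoter), on the outer mitochondrial membrane (OMM; transmembrane domain of OMP25, EF1α promoter) or in the cytosol, all delivered by lentivirus, with 2 lysates per location, each split into a total input and a pulldown. For RNA-seq, intact mRNAs were pulled down with ribosomes labelled at the OMM in wild-type cells carrying a negative control gRNA, in an AKAP1 knock out and in a LARP4 knock out, with 2 lysates each, and in cells given no cycloheximide, with 1 lysate, whose labels name neither a genotype nor a gRNA. Each knock out was 1 monoclonal line, so genotype and clone cannot be told apart. AKAP1 is an RNA-binding anchor of protein kinase A on the OMM, and LARP4 is a La-related RNA-binding protein. All cells received 50 µM biotin together with blue light. In the group without cycloheximide this lasted 1 min. The other groups received 100 µg/mL cycloheximide and 10 min of light. The study calls the OMM profiling lysates biological replicates. For the other groups separate cultures are not stated in the sources used here. Their p-values measure the spread between lysates, which may be technical. Each fit pooled that spread over all locations, or over all genotypes given cycloheximide. No p-value therefore rests on its own group alone, and those for OMM footprints also draw on the ER and cytosol lysates.

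Coding-sequence counts ran from 1025114, in OMM pulldown 1, to 19539527, in ER pulldown 1, and RNA-seq counts from 38347615 to 100840544. AKAP1 was at 32.2 and 20.3 CPM (counts scaled to a common library total) in the total inputs of its knock out against 115 and 119 in wild type, and LARP4 was at 79.3 and 74.0 against 225 and 231. LIN28B (161 to 268 CPM), CDH2, NEFM and PAX2 (5.25 to 10.3 CPM), taken as markers of this line, were detected in every total input. The leukocyte gene PTPRC, the hepatocyte gene ALB and the endothelial gene CDH5 were at or near 0. The fibroblast gene COL1A1 was detected too, at 7.16 to 23.1 CPM. The measure throughout is enrichment, the log2 ratio of pulldown to total input. Ratios per lysate were taken from RPKM (footprints) or CPM (RNA-seq). Fitted enrichments came from edgeR's quasi-likelihood test on counts scaled by library totals, with Benjamini-Hochberg adjusted p over all genes tested, and "higher" or "lower" is written at an adjusted p below 0.05. For footprints the per-lysate ratios lay above the fitted scale by 0.37 and 0.20 at the ER and by 0.24 and 0.23 in the cytosol, because the RPKM denominator also holds reads outside coding sequence, and at the OMM they differed by 0.03 or less.

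Footprints of 26 members were given in entries of 1 gene, and those of the other 10 were merged with another gene or transcript and are reported apart, without a test. In the 6 total inputs the membrane-arm accessory subunits had the highest median footprint density, 315 to 459 RPKM over 14 genes. The median was 136 to 193 RPKM for 7 matrix-arm accessory subunits and 45.7 to 76.4 for 4 matrix-arm core subunits. The membrane-arm range was wide, with NDUFA3 at 10.7 to 39.05 RPKM and NDUFA10 at 35.7 to 51.1. Footprint density was not divided by mRNA level. NDUFA1, a small single-span membrane subunit, had 1660 to 2915 RPKM, and NDUFS5, a subunit on the intermembrane-space side, had 1484 to 1719 RPKM. The subunits also differ in length. The core proteins have 210 to 727 residues, the matrix-arm accessory proteins 99 to 473 and the membrane-arm accessory proteins 58 to 355. Of the 35, 26 have fewer than 200. Lengths and intron numbers are those of the Ensembl canonical transcript of each gene, and other isoforms were not considered.

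Is translation of the subunits concentrated at the mitochondrial surface? At the OMM, 20 of the 23 complex I members tested were higher in the pulldown, 2 were lower and 1 was not called, whereas 17.0% of all 6728 genes tested were higher and 46.0% were lower. All 6 matrix-arm accessory subunits and 12 of 13 membrane-arm accessory subunits were higher, against 2 of 4 core subunits. The core calls depend on the positions counted, which covered 32.6% of the coding length of NDUFS7, 38.7% of NDUFS8 and 42.4% of NDUFV1. Over all exons, an alternative added after seeing the data, these were all higher (0.27, 0.94 and 0.80). NDUFS1 was lower (−0.42), and the membrane-arm subunit NDUFA10 was higher (0.85). The median fitted enrichment was 1.25 for matrix-arm accessory, 1.21 for membrane-arm accessory and 0.11 for core subunits, and it was −0.38 over all genes. An enrichment above 1 was called for 13 of 23 members (6.08% of all genes) and one above 1.5 for 6 (2.42%), of which 4 were membrane-arm and 2 matrix-arm accessory subunits and 0 were core subunits.

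NDUFB1, a single-span subunit of 58 residues (chr14:92116122-92121917, minus strand, GRCh38), had the highest fitted enrichment of the 24 genes tested, on counts over 61 coding positions. Over all exons, an alternative added after seeing the data, NDUFB9 was highest (2.89), ahead of NDUFB1 (2.14) and NDUFA4 (2.14). The footprint density of NDUFB1 was 587 and 1069 RPKM in the OMM total inputs and 2523 and 5406 in the pulldowns. Its log2 ratios were 2.10 and 2.34 and its fitted enrichment was 2.26 (SE 0.13, adjusted p = 1.55e-10). The ratios of NDUFB1 at the ER and in the cytosol were all between −0.14 and 0.42, below both OMM lysates.

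NDUFB9, a membrane-arm subunit of the LYR family (chr8:124539101-124580648, plus strand), had 345 and 253 RPKM in the OMM total inputs and 1267 and 1204 in the pulldowns. Its ratios were 1.88 and 2.25 and its fitted enrichment was 2.09 (SE 0.11, adjusted p = 5.07e-11). NDUFA6, the LYR protein of the matrix arm, followed with ratios of 1.97 and 1.92 (fitted 1.97, SE 0.09, adjusted p = 1.76e-11). NDUFB10, which carries cysteine motifs on the intermembrane-space side, had 1.66 and 1.99 (fitted 1.85, SE 0.10, adjusted p = 6.82e-11). NDUFA1 had 1.80 in both lysates, and NDUFA2, a matrix-arm subunit with a thioredoxin-like fold, had 1.78 and 1.70. NDUFA4, the cytochrome oxidase subunit with the NDUF name, reached 2.09 and 2.31 (fitted 2.22, SE 0.09, adjusted p = 4.36e-12), a level between those of NDUFB1 and NDUFB9.

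The core subunits spread around a lower level. NDUFS1, the large iron-sulfur subunit of 727 residues (chr2:206114817-206159509, minus strand), had 66.5 and 70.3 RPKM in the OMM total inputs and 54.6 and 50.02 in the pulldowns. Its ratios were −0.28 and −0.49 and its fitted enrichment was −0.38 (SE 0.10, adjusted p = 0.00401), which is the median of all genes. NDUFV1, the FMN-binding subunit that takes up NADH, had 0.49 and 0.65 (fitted 0.60, SE 0.14, adjusted p = 0.00168). NDUFS8, which holds iron-sulfur clusters, had 0.50 and 1.02 (fitted 0.78, SE 0.15, adjusted p = 0.000245).

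NDUFS7, which lies at the quinone-binding end of the matrix arm, had footprint counts over 208 coding positions, 32.6% of its coding length. Its ratios were −1.39 and −1.09 (fitted −1.20, SE 0.39, adjusted p = 0.0132), the lowest of the members tested. The direction rests on the counted positions: over all exons its fitted enrichment was 0.27 (adjusted p = 0.0191).

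Among the membrane-arm accessory subunits tested at the OMM, NDUFA10 and NDUFB3 were lowest. NDUFA10, a nucleoside-kinase-like subunit and with 355 residues the longest of its class, had 0.01 and 0.43 (fitted 0.27, SE 0.15, adjusted p = 0.12). Over all exons its fitted value was 0.85 (adjusted p = 2.49e-06). NDUFB3, a small single-span subunit, had 0.43 and 0.71 (fitted 0.61, SE 0.16, adjusted p = 0.00275). By length, all 17 tested members under 200 residues were higher, with fitted values from 0.61 to 2.26. Of the 6 members of 200 residues or more 3 were higher, 2 lower and 1 not called. NDUFA3 and NDUFA5, both short, had too few footprints to be tested at the OMM. The OMM ratios of NDUFA3 were −0.03 and 0.03, with 1.13 fitted over all exons. Those of NDUFA5 were 1.08 and 1.01, with 0.52 over all exons.

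**Figure D1:**
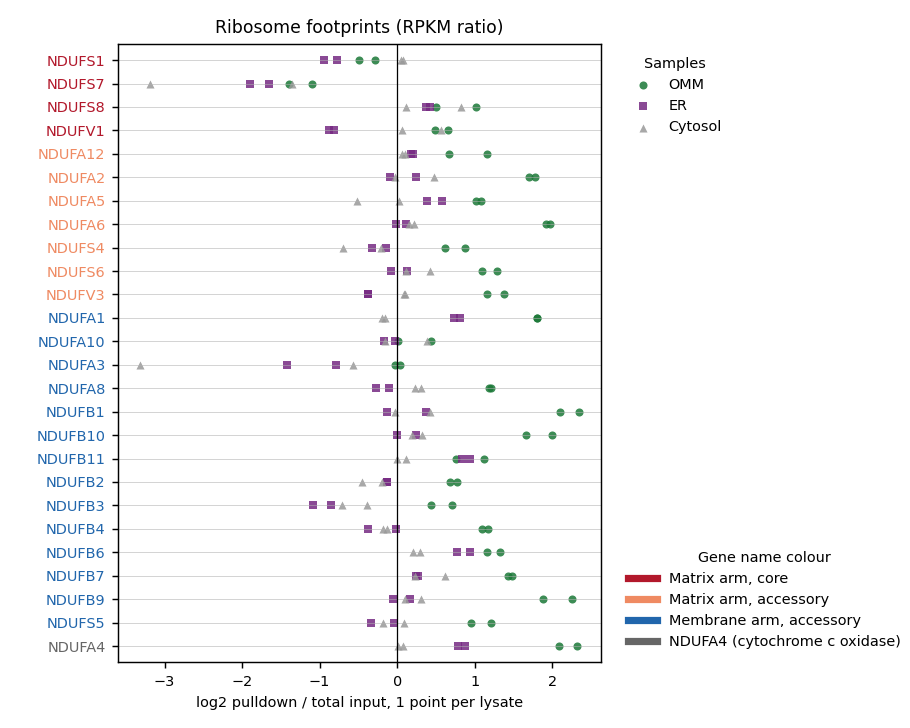
Log2 ratio of pulldown to total input RPKM (horizontal axis) for the 26 members with footprints in an entry of 1 gene, with 1 point per lysate and a colour for each ligase location. The OMM points of NDUFB1, NDUFA4, NDUFB9 and NDUFA6 lie near 2, clear of their ER and cytosol points, while the OMM points of NDUFS1 (−0.28 and −0.49) lie between its ER and cytosol points.

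For the 10 members in shared entries the OMM ratios ran from 0.16 to 1.99 in lysate 1 and from 0.22 to 2.24 in lysate 2. The entry of NDUFA9, a dehydrogenase-like matrix-arm subunit merged with GALNT8, was highest at 1.99 and 2.24, and that of NDUFV2, an iron-sulfur core subunit, was lowest at 0.16 and 0.22. The entry of NDUFS3, another core subunit, had 0.75 and 0.80. NDUFC2, a membrane-arm subunit merged with KCTD14, was the one shared entry in which both ER ratios (1.96 and 2.06) lay above both OMM ratios (1.20 and 1.31).

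At the ER the members were mostly not enriched. Of 23 tested, 3 were higher (19.8% of all genes) and 14 were lower (72.0%), with a median of −0.26 against −0.68 over all genes. The 3 were NDUFB11 (fitted 0.60), NDUFB6 (0.57) and NDUFA1 (0.49), all membrane-arm accessory subunits, and NDUFA4 had 0.55. The lowest were NDUFS7 (−2.10), NDUFB3 (−1.25), NDUFS1 (−1.14) and NDUFV1 (−1.13). Over all exons NDUFB11, NDUFB6 and NDUFA1 were still higher. So were NDUFA3 (0.62) and the core subunits NDUFS8 (0.42) and NDUFS7 (0.25), while NDUFB3, NDUFS1 and NDUFV1 stayed lower. Scaling by TMM raised the median of all genes at the ER by 0.65 and turned the count to 12 higher and 4 lower, so the direction at the ER holds only relative to library totals. Leaving out either ER lysate gave 8 to 10 members lower.

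With the ligase in the cytosol, 0 of 24 members were higher by edgeR (2.02% of all genes) and 7 were lower (5.96%), with a median of −0.13 against 0.02. NDUFS7 (−2.25) and NDUFA3 (−2.09), a short membrane-arm subunit, were the lowest, but the cytosol ratios of NDUFA3 were −0.57 and −3.31. Over all exons NDUFA3 was at −0.09 (adjusted p = 0.58) and NDUFS7 at 0.40 (adjusted p = 0.00784). Leaving out a lysate gave 0 to 2 members higher and 6 lower.

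The difference between locations was also tested. It too depends on the scaling: TMM moved its median over all genes by 0.32 for OMM minus cytosol and by −0.33 for OMM minus ER. The OMM enrichment exceeded that in the cytosol for 20 of 23 members (16.6% of all genes) and fell below it for 0 (39.7%), with differences up to 2.31 for NDUFB1 and 2.23 for NDUFA1. The members not called were NDUFS1 (difference −0.20), NDUFS7 (1.05) and NDUFA10 (0.40), of which 2 are core subunits. Over all exons NDUFS7 was at −0.13 (adjusted p = 0.409) and NDUFA10 at 0.87 (adjusted p = 7.79e-05). The OMM enrichment exceeded that at the ER for 22 of 23 members (31.1% of all genes) and fell below it for 0 (18.6%). The differences ran from 0.37 for NDUFB11 (adjusted p = 0.0475) to 2.42 for NDUFB1, and NDUFS7 was not called. Over all exons neither NDUFB11 (0.29, adjusted p = 0.082) nor NDUFS7 (0.03, adjusted p = 0.889) was called. In 17 of 23 members both OMM lysates lay above all 4 ER and cytosol lysates, which held for 12.1% of all genes. These were 6 of 6 matrix-arm accessory, 11 of 13 membrane-arm accessory and 0 of 4 core subunits.

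The membrane-arm accessory subunits stood above the core at both membranes. The class median of the membrane-arm accessory subunits minus that of the core was 1.07 and 1.13 in the OMM lysates, 0.96 and 0.78 in the ER lysates and −0.16 and 0.03 in the cytosol lysates. The matrix-arm accessory subunits stood with the membrane-arm ones: the membrane-arm median minus theirs was 0.05 and −0.12 at the OMM. Over all exons the ER gap was 0.057 and the OMM gap 1.07. These medians are descriptions over few genes, 4 of them core.

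**Figure D2:**
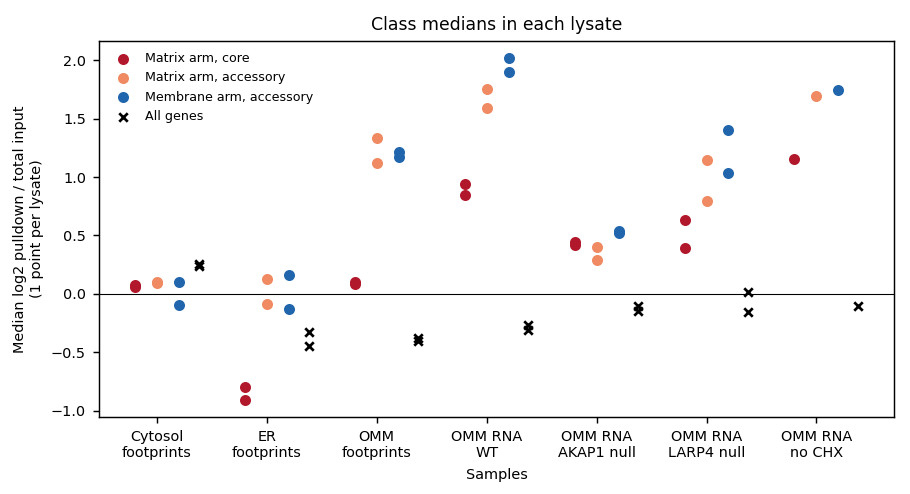
Median log2 ratio of pulldown to total input (vertical axis) for the 3 classes of complex I subunits in each lysate of ribosome profiling and RNA-seq, with the median of all genes as a cross. In the wild-type RNA-seq lysates the membrane-arm accessory medians of 1.90 and 2.02 lie above the core medians of 0.84 and 0.94, and in the AKAP1 null lysates all 3 classes lie between 0.29 and 0.54.

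The mRNAs themselves were measured by RNA-seq of the OMM pulldown, for which all 36 members were tested. In wild type, 32 of 35 subunit mRNAs were higher in the pulldown (20.2% of all 13856 genes), 2 were lower (45.6%) and 1 was not called. All 20 membrane-arm accessory mRNAs, 8 of 9 matrix-arm accessory mRNAs and 4 of 6 core mRNAs were higher, with medians of 1.94, 1.68 and 0.89 against −0.28 over all genes. Above 1 lay 26 of 35 members (6.81% of all genes) and above 1.5 lay 22 (2.69%), of which 16 were membrane-arm accessory, 5 matrix-arm accessory and 1 core.

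NDUFB9 mRNA stood above the rest. It had 109 and 105 CPM in the wild-type total inputs and 1362 and 1405 CPM in the pulldowns, ratios of 3.64 and 3.75 and a fitted enrichment of 3.69 (SE 0.12, adjusted p = 1.79e-06). NDUFB10 (2.47), NDUFB7 (2.38), NDUFB4 (2.31), NDUFA13 (2.28) and NDUFA1 (2.20), all membrane-arm accessory subunits, came next among the complex I members. NDUFA4 had ratios of 2.37 and 2.47 (fitted 2.42, SE 0.12, adjusted p = 6.82e-06). The lowest membrane-arm mRNA was that of NDUFB5, at 0.54.

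The core mRNAs again covered a wide range. NDUFS8 (1.55, SE 0.11, adjusted p = 1.73e-05) was the highest of those described, followed by NDUFV1 (1.22, SE 0.12, adjusted p = 5.98e-05), NDUFS7 (0.93, SE 0.09, adjusted p = 6.09e-05) and NDUFS3 (0.86, SE 0.11, adjusted p = 0.000222). NDUFS1 was lower in the pulldown (−0.64, SE 0.09, adjusted p = 0.000424), as in the footprints. NDUFV2 was lowest (−1.74, SE 0.26, adjusted p = 0.000545) and NDUFA7 was not called (0.17). Both had few RNA counts in the wild-type total inputs, 105 and 131 for NDUFV2 and 80 and 85 for NDUFA7. The 10 members with merged footprints include both, and NDUFA9. Whether that overlap with another gene also affects RNA counts was not tested. Across the 23 complex I members tested in both assays, OMM footprint and wild-type mRNA enrichment had Pearson's r = 0.76. That is a description across genes, which are not independent, measured with the same ligase in different lysates.

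Does the knock out of AKAP1 change where the subunit mRNAs are found? The difference in OMM enrichment, AKAP1 null minus wild type, was called lower for 24 of 35 subunit mRNAs (7.96% of all genes) and called higher for 3 (6.52%), and 8 were not called. Of the membrane-arm accessory mRNAs 17 of 20 fell and 1 rose, of the matrix-arm accessory mRNAs 6 of 9 fell and 1 rose, and of the core mRNAs 1 of 6 fell and 1 rose. The median difference was −1.36, −1.05 and −0.14 for these classes and 0.19 over all genes. A pulldown ratio cannot tell apart fewer mRNAs at the membrane and fewer labelled ribosomes on each mRNA.

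NDUFB9 fell most. Its total input was 110 and 93.0 CPM in the AKAP1 null lysates, near the wild-type values, while its pulldown was 141 and 137 CPM. The ratios were thus 0.36 and 0.55 against 3.64 and 3.75 in wild type, a difference of −3.23 (SE 0.15, adjusted p = 9.75e-05). NDUFB1 had 0.07 and 0.29 against 2.10 and 2.19 (difference −1.96, SE 0.16, adjusted p = 0.00033). NDUFB3 had −0.05 and −0.02 against 1.84 and 1.91 (difference −1.92, SE 0.12, adjusted p = 0.000191). NDUFA2 of the matrix arm had 0.29 and 0.35 against 2.17 and 2.20 (difference −1.87, SE 0.15, adjusted p = 0.00033), and NDUFA4 had 0.74 and 0.32 against 2.37 and 2.47 (difference −1.89, SE 0.17, adjusted p = 0.000403). In each of these the 2 AKAP1 null lysates lay far below both wild-type lysates.

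NDUFB10 (−1.79), NDUFB4 (−1.79), NDUFA1 (−1.70), NDUFB7 (−1.67), NDUFA6 (−1.56), NDUFB2 (−1.55) and NDUFS5 (−1.55) also fell. Smaller falls were those of NDUFV3 (−1.04), a matrix-arm accessory subunit, of NDUFA12 (−1.05) and of NDUFS8 (−1.05), the one core mRNA that fell.

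The mRNAs that rose, those of NDUFA10, NDUFV1 and NDUFA9, encode proteins of 355, 464 and 377 residues. That of NDUFV3, with 473 residues, fell. NDUFA10 had 1.82 and 2.14 in the AKAP1 null lysates against 0.78 and 0.92 in wild type (difference 1.13, SE 0.15, adjusted p = 0.00164), with the total input at 115 and 123 CPM against 116 and 117. NDUFV1 had 1.80 and 2.21 against 1.11 and 1.32 (difference 0.79, SE 0.16, adjusted p = 0.0168) and NDUFA9 had 1.56 and 2.08 against 1.02 and 1.21 (difference 0.70, SE 0.18, adjusted p = 0.0341). Scaling by TMM, which moved the median of all genes by −0.17, left NDUFV1 and NDUFA9 uncalled (adjusted p = 0.0671 and 0.106). The count of 3 fell to 1 without AKAP1 null lysate 2 or without either wild-type lysate. NDUFS1 (0.24, SE 0.13, adjusted p = 0.221) and NDUFV2 (0.15, SE 0.37, adjusted p = 0.796) were not called.

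The calls also sorted by protein length. Of 26 members under 200 residues, 22 fell, 0 rose and 4 (NDUFA5, NDUFA7, NDUFB5 and NDUFC2) were not called. Of 9 members of 200 residues or more, 3 rose, 2 (NDUFS8 and NDUFV3) fell and 4 (NDUFS1, NDUFS3, NDUFS7 and NDUFV2) were not called. Across the 35 genes the difference and length had Pearson's r = 0.62, and within the 26 short ones r = 0.11. The number of introns, which rises with length, had r = 0.71 across the 35 and 0.41 within the 26. The length of the 3′ untranslated region of the canonical transcript had r = 0.576 across the 35 and 0.655 within the 26. All core subunits had 210 residues or more, so arm and length cannot be told apart for the core.

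**Figure D3:**
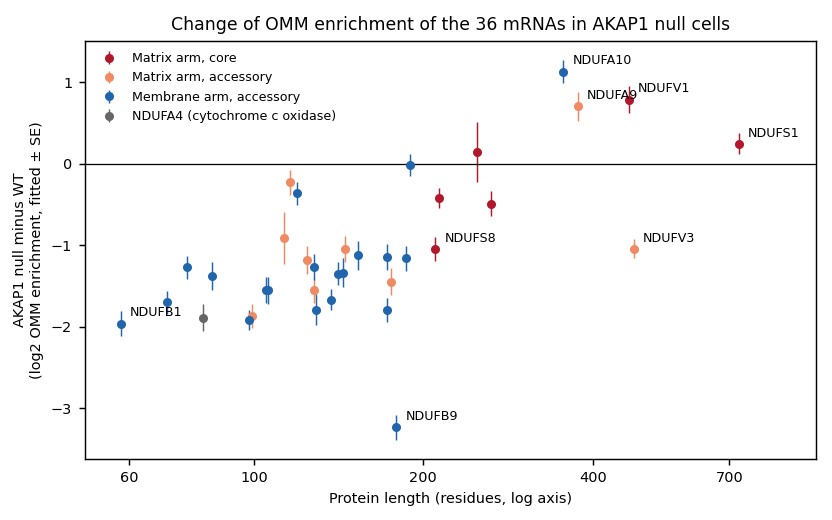
Fitted difference in OMM mRNA enrichment, AKAP1 null minus wild type (vertical axis, log2, bars are SE), against protein length in residues (horizontal axis, log scale), coloured by class. NDUFB9 lies lowest at −3.23, the points under 200 residues lie at or below 0, and NDUFA10 (1.13) lies highest among the longer ones.

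In the AKAP1 null line itself, 26 of 35 subunit mRNAs were still higher in the pulldown (13.9% of all genes) and 3 were lower (28.1%), with a median of 0.51 against −0.12 over all genes. Leaving out either AKAP1 null lysate gave 5 to 9 members higher, so this count depends on both lysates. Above 1.5 lay 3 of 35 (1.10% of all genes): NDUFV1 (2.00), NDUFA10 (1.98) and NDUFA9 (1.82). In the total inputs 0 of 35 members were called by edgeR between AKAP1 null and wild type, with 0 at an unadjusted p below 0.05 and 0 by DESeq2. Of all 13977 genes edgeR also called 0 (489 at an unadjusted p below 0.05), and AKAP1 itself was not called (−2.15, SE 0.22, adjusted p = 0.243), so the count says little about these members. The differences ran from −0.26 (NDUFB7) to 0.40 (NDUFS4).

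The LARP4 null contrast shares its wild-type lysates with the AKAP1 null contrast. Within the LARP4 null line 31 of 35 subunit mRNAs were higher in the pulldown (22.8% of all genes) and 2 were lower (30.0%). The difference to wild type was called for 0 of 35 members and 0 of 13856 genes by edgeR, with 27 members, all lower, at an unadjusted p below 0.05 (4.81% of all genes), and the lowest adjusted p of a member was 0.16. DESeq2 called 23 members lower (3.28% of all genes). Without LARP4 null lysate 1 edgeR called 28 lower (8.24%), in a fit that called 5659 of 13856 genes in either direction, and without lysate 2 it called 10 (0.671%), so the count turned on which lysates entered and on the tool.

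By level, both LARP4 null lysates lay below both wild-type lysates in 31 of 35 members (12.4% of all genes) and above them in 0 (43.6%). In the AKAP1 null line the same was true of 29 (22.3%) and 4 (53.4%). The median LARP4 null difference was −0.70 for membrane-arm accessory, −0.60 for matrix-arm accessory and −0.32 for core mRNAs, against 0.17 over all genes. The lowest were NDUFA4 (−0.92, SE 0.16), NDUFA2 (−0.90) and NDUFS5 (−0.85, SE 0.17), with an edgeR adjusted p of 0.16 for NDUFA4 and NDUFS5. NDUFV2 (0.23), NDUFS1 (0.03) and NDUFA7 (−0.08) were the highest. NDUFB9 had ratios of 3.34 and 3.04 in the LARP4 null lysates against 0.36 and 0.55 in the AKAP1 null lysates. In the total inputs 0 of 35 members were called by edgeR (0.00715% of all genes were higher and 0.00715% lower, with 2 members at an unadjusted p below 0.05 and 0 by DESeq2), with differences from −0.50 (NDUFB2) to 0.24 (NDUFS4).

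**Figure D4:**
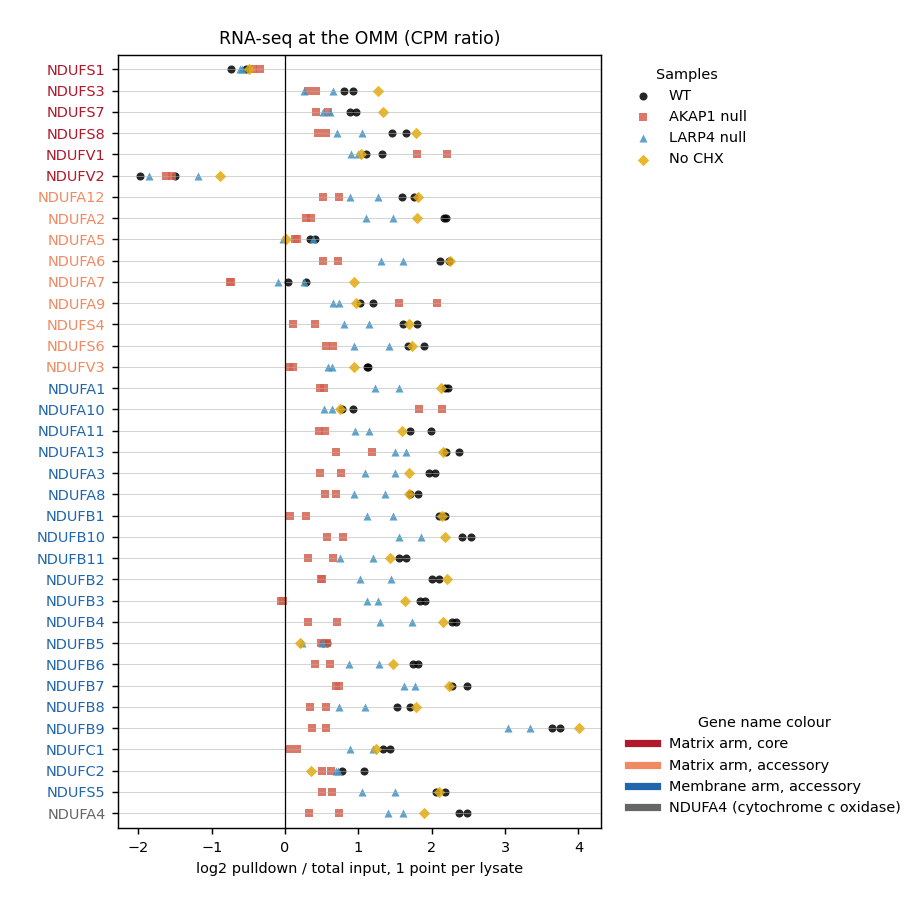
Log2 ratio of pulldown to total input in OMM RNA-seq (horizontal axis) for the 36 members, with 1 point per lysate coloured by wild type, AKAP1 null, LARP4 null and no cycloheximide. The AKAP1 null points of NDUFB9 (0.36 and 0.55) lie far left of the other groups, and those of NDUFA10 lie to the right.

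The lysate without cycloheximide has no replicate, so no test was made. It differed from the wild-type lysates in the time of biotin and light as well as in drug, and possibly in the control gRNA, which its labels do not name. It lay above both wild-type lysates in 11 of 35 members (59.5% of all genes) and below both in 20 (27.1%). Of the core 5 of 6 lay above and 1 below, of the matrix-arm accessory mRNAs 3 and 4 of 9, and of the membrane-arm accessory mRNAs 3 and 15 of 20. NDUFB9 remained highest, at 4.003. The gap between membrane-arm accessory and core medians was 0.59 without cycloheximide, against 1.06 and 1.08 in wild type, 0.08 and 0.12 in AKAP1 null and 0.77 and 0.64 in LARP4 null.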

How the data were processed

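The authors aligned footprints to GRCh38 and assigned them to coding sequence with plastid. The deposited estimated counts were rounded, and the deposited RPKM (scaled by the reads that fell on any annotated transcript) gave the ratios per lysate. RNA-seq counts per gene were deposited by the authors from featureCounts; ratios had 0.5 counts added per library. A deposited column named FPKM, treated as a score because it holds about 10 times the FPKM computed from counts and gene length, was not used. Genes needed 64 footprints in each total input of the comparison, or a mean of 64 RNA counts. edgeR 4.0.16 (R 4.3.3) fitted a term per lysate and a pulldown effect per location or genotype, scaled by library totals (TMM for total inputs), and DESeq2 1.42.0 was an alternative. Scripts were tested on simulated data.

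The members, classes and lists were chosen with earlier results of these data known, and 1 member is not reported here. Full statistics are given for the 5 highest and 5 lowest members at the OMM in footprints, the 5 largest falls and rises in AKAP1 null, the 3 in LARP4 null, the core, NDUFB9 and NDUFA4; other members are named as part of the account of all members, after their values were seen. Tables of lysate ratios and fits used Python 3.11.15.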

Additional observations from a re-analysis of the deposited data

Results flagged for a closer look

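A test of the difference itself separated locations or genotypes for the following values. OMM footprint enrichment exceeded that in the cytosol for 20 complex I members and that at the ER for 22. The AKAP1 null minus wild-type difference in OMM mRNA enrichment was called lower for 24 members and higher for 3. It was −3.23 for NDUFB9, −1.96 for NDUFB1, −1.92 for NDUFB3, −1.89 for NDUFA4 and −1.87 for NDUFA2. It was 1.13 for NDUFA10, 0.79 for NDUFV1 and 0.70 for NDUFA9. No cause was tested, and each knock out is 1 clone.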

How the results depend on the processing

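Among values of single members, 773 of 832 recomputed under another setting kept their direction and side of the threshold, 35 lost the call, 21 gained it and 3 reversed. The 3 were NDUFS7 counted over all exons, a setting added after seeing the data: 0.25 at the ER, 0.27 at the OMM and 0.40 in the cytosol. Over all exons 6 members were higher at the ER, 1 was lower at the OMM, and 3 were higher and 3 lower in the cytosol. The membrane-arm minus core gap at the ER was then 0.057, and the membrane-arm minus matrix-arm accessory gap at the OMM was 0.32. Under DESeq2 and under TMM, 12 members were higher and 4 lower at the ER and 0 were lower at the OMM. TMM raised the median of all genes by 0.65 at the ER and 0.32 at the OMM, and DESeq2 by 0.61 and 0.35. DESeq2 gave 1 member lower in AKAP1 null and 23 lower in LARP4 null minus wild type, as did dropping the minimum of counts (23), and TMM gave 1 higher in AKAP1 null minus wild type. With members under 200 residues only, the LARP4 null membrane-arm minus matrix-arm accessory gap was 0.17, and the core has no such member. No cause was tested for these changes.

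Leaving out a lysate gave 8 to 10 members lower at the ER, 0 to 1 lower at the OMM and 0 to 2 higher in the cytosol. It gave 5 to 9 higher in AKAP1 null and 0 lower, 1 to 3 higher in AKAP1 null minus wild type, and 0 to 28 lower in LARP4 null minus wild type. The lone sample of an arm was then assumed to vary like the others. Of 372 single values, 328 kept their call, 36 lost it and 8 gained it.

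Each fit pairs the pulldown with the total input of its lysate. Without that replicate block, 5 members were lower at the ER, 0 lower at the OMM, 0 lower in the cytosol, 10 higher at the OMM than in the cytosol, 14 higher than at the ER, 15 higher and 1 lower in AKAP1 null, and 1 higher in AKAP1 null minus wild type. Lysate numbers shared across groups are only labels. A replicate block by number on enrichment gave 20 members higher at the OMM and 24 lower in AKAP1 null minus wild type, and moved no count of members by over 1.5 times.

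The lowest depth, in OMM pulldown 1, limits the footprint values of lowly translated members, and 2 lysates a group limit all tests.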

Other observations

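The complex I assembly factors, which build the enzyme but are not part of it, were measured beside the members, and no difference between the lists was tested. In OMM footprints 7 of 16 tested were higher (17.0% of all genes) and 0 lower (median 0.31), led by NDUFAF8 (1.69), NDUFAF2 (1.28) and COA1 (1.18), and at the ER COA1 had 1.58 and ECSIT −1.01. In wild-type OMM mRNA 16 of 20 were higher (20.2% of all genes, median 0.71), among them NDUFAF2 (1.79), NDUFAF8 (1.70), DMAC1 (1.68), NDUFAF3 (1.51) and TMEM126A (1.44). In AKAP1 null minus wild type 8 of 20 fell (7.96% of all genes) and 3 rose (6.52%), with NDUFAF8 (−1.82), DMAC1 (−1.31), NDUFAF2 (−1.31) and TMEM126A (−1.05) the falls past 1.

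NDUFAB1, the acyl carrier protein found in both arms, had 0.88 in OMM footprints, 1.63 in wild-type OMM mRNA and an AKAP1 null difference of −0.99 (edgeR, adjusted p = 0.00536). The core subunits encoded in mitochondrial DNA are made by mitochondrial ribosomes, which do not carry RPL29. Those that could be tested were lower in every pulldown: MT-ND1 had −4.03 and MT-ND5 −4.33 at the OMM, and the range was −6.28 to −5.08 at the ER and −6.84 to −5.34 in the cytosol.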
